A study of Homo sapiens with 8 samples.

Results

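The 1274 regions described here lie over noncoding genes only. They are the rows of the authors' deposited table of macroH2A1 regions, on chromosomes 1 to 22, that overlap at least 1 annotated RefSeq gene by 1 base or more and touch no protein-coding gene span. They make up 28.5% of the 4474 regions in that table and 37.2 of its 114 Mb, or 32.6% of its length. The choice used only positions and annotation, not the fold changes. The regions come from HepG2, a human hepatoblastoma cell line, in which macroH2A1 was mapped by CUT&RUN, an assay that sequences the DNA cut loose by a nuclease bound to the antibody. Cells were transfected with an siRNA against ANP32B (siANP32B) or with a control siRNA (siControl) and harvested 3 days later, and chromatin was digested for 30 min. Each group had 2 anti-macroH2A1 libraries, which the labels number but do not tie to separate cultures, so the spread between them may be technical. The depth of the libraries is unknown, because the deposited files hold domain lists and a table of differential regions and no read totals.

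MacroH2A1 is a histone H2A variant that carries a large extra domain and is found on broad stretches of mostly quiet chromatin. ANP32B is an acidic protein that belongs to a family of histone chaperones, which carry histones and help to place them in or remove them from nucleosomes. Long noncoding RNA (lncRNA) genes make transcripts that are not translated, microRNA genes make short RNAs that guide the silencing of messenger RNAs through a seed near their 5′ end, and pseudogenes are degenerate copies of other genes. Many lncRNA genes are long and lie in sequence with few coding genes.

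The 1274 regions overlapped 1704 noncoding genes. Of these genes 1128 were lncRNA genes, 479 pseudogenes, 27 microRNA genes, 35 small nucleolar RNA (snoRNA) genes, 17 tRNA genes and 2 small nuclear RNA genes, and 11 were antigen receptor segments or loci and 5 other noncoding genes. Uncharacterised loci, whose symbols start with LOC, were 750 of the lncRNA genes, and 241 carried LINC symbols. By region, 999 lay over at least 1 lncRNA gene, 399 over a pseudogene and 24 over a microRNA gene, and 186 lay over several kinds of gene. A single noncoding gene was overlapped by 882 regions, and 110 genes stretched over more than 1 region, so regions are not independent of each other. The regions were 10 to 271 kb wide with a median of 20 kb, against 18 kb for all regions of the table. The median region had 39.2% of its length in noncoding gene spans. In 341 cases the region lay inside its gene of longest overlap, in 426 the gene lay inside the region, and in 507 a gene end was crossed. The nearest coding gene was a median of 27.6 kb away, with 364 regions within 10 kb of one and 267 more than 100 kb from any.

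The microRNAs in these regions are the shortest and best defined products, and their mature sequences are shown first, from RefSeq (GRCh38.p14), with the seed (bases 2 to 8) in capitals. Of the 27 microRNA genes, 20 matched the sequence table, with 27 mature microRNAs and 26 different seeds. The first set comes from the genes whose regions were lower after siANP32B at a false discovery rate (FDR) of 0.05.
hsa-miR-30c-5p: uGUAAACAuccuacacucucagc
hsa-miR-30c-2-3p: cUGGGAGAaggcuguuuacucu
hsa-miR-4703-5p: uAGCAAUAcaguacaaauauagu
hsa-miR-4703-3p: uGUAGUUGuauuguauugccac
hsa-miR-5692b: aAUAAUAUcacaguaggugu
hsa-miR-6076: aGCAUGACagaggagaggugg
hsa-miR-3141: gAGGGCGGguggaggagga
hsa-miR-4425: uGUUGGGAuucagcaggaccau
The second set comes from regions that did not pass that threshold. It includes the let-7a and miR-100 pair that shares 1 region, and miR-422a and miR-378f, which were the only ones among the 27 mature sequences compared to share a seed and whose genes lie on chromosomes 15 and 1.
hsa-let-7a-5p: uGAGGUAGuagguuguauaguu
hsa-miR-100-5p: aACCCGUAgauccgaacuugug
hsa-miR-422a: aCUGGACUuagggucagaaggc
hsa-miR-378f: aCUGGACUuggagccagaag
hsa-miR-7-5p: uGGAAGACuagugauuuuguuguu
hsa-miR-331-3p: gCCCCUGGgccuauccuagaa
hsa-miR-1275: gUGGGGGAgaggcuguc
The sequence of miR-30c-5p is encoded at 2 annotated loci, that of miR-7-5p at 2 and that of let-7a-5p at 3, so the regions here hold only 1 of the places from which each of these microRNAs can come.

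Promoter sequences are shown for 4 lncRNA genes whose start in the promoter table lies inside a strongly changed region. Each is RefSeq sequence of GRCh38.p14 from 250 bases before to 50 bases after the start that the promoter table uses, on the gene's strand, with every CG in capitals. For LOC105378316 that start lies inside the annotated gene span, which begins at 58433926; the other 3 windows lie at the annotated start of the gene. LOC105378316 (chr10:58435884-58436183, plus strand) and LINC01729 (chr20:5509953-5510252, minus strand) lie in the regions of lower macroH2A1.
LOC105378316: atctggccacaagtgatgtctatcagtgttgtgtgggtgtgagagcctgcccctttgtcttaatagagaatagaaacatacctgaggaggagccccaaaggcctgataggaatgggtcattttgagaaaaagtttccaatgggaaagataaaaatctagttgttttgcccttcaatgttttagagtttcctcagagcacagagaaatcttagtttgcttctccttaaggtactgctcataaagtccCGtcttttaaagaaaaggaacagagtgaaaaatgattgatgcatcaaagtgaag
LINC01729: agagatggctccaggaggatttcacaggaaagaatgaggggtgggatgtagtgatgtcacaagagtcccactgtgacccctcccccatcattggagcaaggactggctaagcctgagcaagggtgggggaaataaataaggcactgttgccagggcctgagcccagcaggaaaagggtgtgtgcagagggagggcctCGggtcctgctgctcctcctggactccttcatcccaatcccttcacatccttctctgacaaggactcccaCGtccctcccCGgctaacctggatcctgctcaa
LOC105375052 (chr6:40715292-40715591, plus strand) and LOC105374949 (chr6:15980887-15981186, minus strand) lie in regions of higher macroH2A1.
LOC105375052: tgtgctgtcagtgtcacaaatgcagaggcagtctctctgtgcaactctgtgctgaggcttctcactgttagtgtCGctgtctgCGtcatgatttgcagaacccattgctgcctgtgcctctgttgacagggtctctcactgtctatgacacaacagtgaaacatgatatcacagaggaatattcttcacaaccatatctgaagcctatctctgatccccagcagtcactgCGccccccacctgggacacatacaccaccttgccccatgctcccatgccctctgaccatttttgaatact
LOC105374949: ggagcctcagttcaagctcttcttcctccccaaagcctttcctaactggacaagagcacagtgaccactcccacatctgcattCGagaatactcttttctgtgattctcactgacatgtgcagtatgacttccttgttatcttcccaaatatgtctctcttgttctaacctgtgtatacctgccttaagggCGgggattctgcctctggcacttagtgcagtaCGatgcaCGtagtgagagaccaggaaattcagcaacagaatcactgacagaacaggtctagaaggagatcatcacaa
These promoters held 1, 3, 3 and 4 CG dinucleotides in the order shown, at 40.3%, 57.0%, 50.3% and 46.7% GC, and none held TATAAA on either strand. The 356 noncoding promoters inside these regions had a median of 4 CG, against 5 for all 11145 noncoding gene promoters in the table and 14 for all 26246 promoters. TATAAA, searched on both strands, was in 13.8% of the 356 and in 15.2% of all noncoding gene promoters. The 252 promoters inside lower regions and the 8 inside higher regions had medians of 3 and 3.5 CG, and TATAAA was in 12.7% of the 252 and in none of the 8.

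The comparison asks whether depletion of ANP32B changes macroH2A1 at noncoding loci. Most of the loci had less macroH2A1 after siANP32B, with the sign of the folds set from the domain lists of the whole table, since the table does not state it. At an FDR of 0.05, 795 of the 1274 regions were lower (62.4%) and 29 were higher (2.28%), while 450 passed in neither direction. In the same comparison 58.4% of all 4474 regions were lower and 3.82% were higher, and the differences between these shares were not tested. The median log2 fold change in the authors' deposited table was -0.57 for noncoding-only regions (middle 50% from -0.75 to -0.36) and -0.54 for all regions. The log2 fold change was below 0 in 92.2% of the noncoding-only regions and in 89.2% of all regions. The fold given for a region is that of its representative window, and not a mean over its length. The authors' deposited table holds neither per-library values nor errors of the folds. The scaling between libraries is not known from the labels or files, and a change of scale would move all these folds together. At the stricter FDR of 0.01, 583 of the 1274 regions were lower (45.8%) and 19 were higher (1.49%), against 42.5% and 2.79% of all regions.

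**Figure D1:**
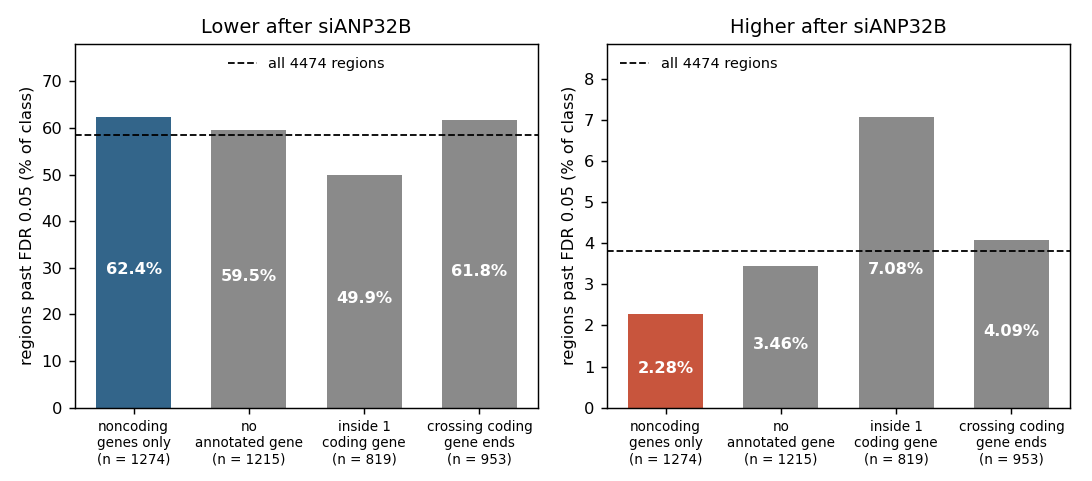
Share of regions called lower (left) and higher (right) after siANP32B at an FDR of 0.05, in percent of each class of regions on chromosomes 1 to 22, with the share over all 4474 regions as a dashed line. Noncoding-only regions stand at 62.4% lower and 2.28% higher, and regions inside 1 coding gene at 49.9% and 7.08%.

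Among the 4 classes, regions that crossed the ends of coding genes had 61.8% lower and 4.09% higher, regions without any annotated gene 59.5% and 3.46%, and regions inside 1 coding gene 49.9% and 7.08%. Noncoding-only regions were 30.4% of all lower regions and 16.96% of all higher regions. The size of the change was like that of the table at large, with a median log2 fold change of -0.70 among lower noncoding-only regions and -0.70 among all lower regions, and of 0.69 and 0.72 among the higher ones. A change of at least 1 on the log2 scale was reached by 72 of the lower and 5 of the higher noncoding-only regions; of all regions, 5.77% and 0.782% reached it. The windows that the authors tested inside the noncoding-only regions were counted as down in 54.5% and up in 2.15% of cases, against 52.5% and 3.52% over all regions. Every window was down in 456 regions and up in 6; 126 of the 1274 regions had a single window.

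By kind of gene, lncRNA regions were lower in 634 of 999 cases (63.5%) and higher in 23, and pseudogene regions were lower in 230 of 399 (57.6%) and higher in 10. Over all 4474 regions, 58.4% were lower and 3.82% were higher, so the pseudogene share lower was close to that of the whole. Regions over LINC genes were lower in 168 of 247 cases (68.0%), and those over antisense genes in 46 of 66 (69.7%). Their median widths were 25 and 17.5 kb, against 20 kb for all noncoding-only regions. MicroRNA regions were lower in 11 of 24 cases (45.8%) and higher in none. Regions over tRNA genes were lower in 11 of 12 cases (91.7%), although their median log2 fold change of -0.49 in the authors' deposited table was smaller in size than that of the lncRNA regions, -0.57. Most of these tRNA calls had FDRs of 0.0134 to 0.0299 and did not pass 0.01, where 42.5% of all regions were still lower. Regions over snoRNA genes were lower in 15 of 25 cases (60%), close to the share over all regions, and higher in 2. The 3 regions over antigen receptor loci, which are rearranged in lymphocytes, did not pass, with log2 fold changes of -0.32, 0.20 and 0.25 in the authors' deposited table. Many of these regions overlap more than 1 kind, so the groups share members, and the differences between them were not tested.

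**Figure D2:**
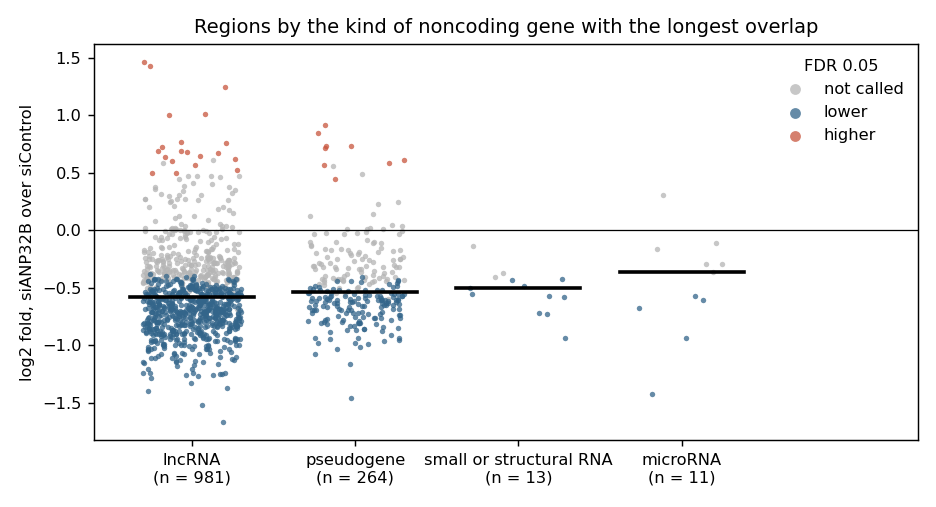
Log2 fold change (siANP32B over siControl) of each noncoding-only region in the authors' deposited table, by the kind of noncoding gene with the longest overlap, with the median as a black bar and each call at an FDR of 0.05 in its own colour; the antigen receptor and other kinds are not drawn. Most points of each kind lie below 0, and the medians are -0.58 for 981 lncRNA regions, -0.54 for 264 pseudogene regions, -0.50 for 13 small RNA regions and -0.36 for 11 microRNA regions.

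Longer regions were called lower more often, a gradient that was not tested. The share lower was 52.0% of the 333 regions of 10 to 14 kb, 60.4% of the 434 of 15 to 24 kb, 65.9% of the 340 of 25 to 49 kb and 81.4% of the 167 of 50 kb or more. In the other regions on chromosomes 1 to 22 the shares in the same classes were 50.8%, 58.2%, 59.9% and 77.5%. Higher calls were fewer among noncoding-only regions in each length class, at 0.300%, 2.07%, 4.12% and 2.99%, against 2.41%, 4.52%, 7.70% and 6.67% of the other regions. Width also went with the presence of a promoter: the 299 regions that held an annotated noncoding promoter had a median width of 31 kb and were lower in 69.6% of cases, while the 975 without one had a median width of 19 kb and were lower in 60.2%. From the shortest to the longest class, 48.5%, 70.5%, 63.7% and 85.5% of the regions with a promoter were lower. Without one the shares were 52.3%, 57.8%, 66.8% and 78.0%, so the direction of the difference changed between length classes. The parts of width and promoter were not tested. Distance to coding genes showed little gradient, with 64.3% lower within 10 kb, 61.1% at 10 to 100 kb and 62.9% beyond 100 kb.

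**Figure D3:**
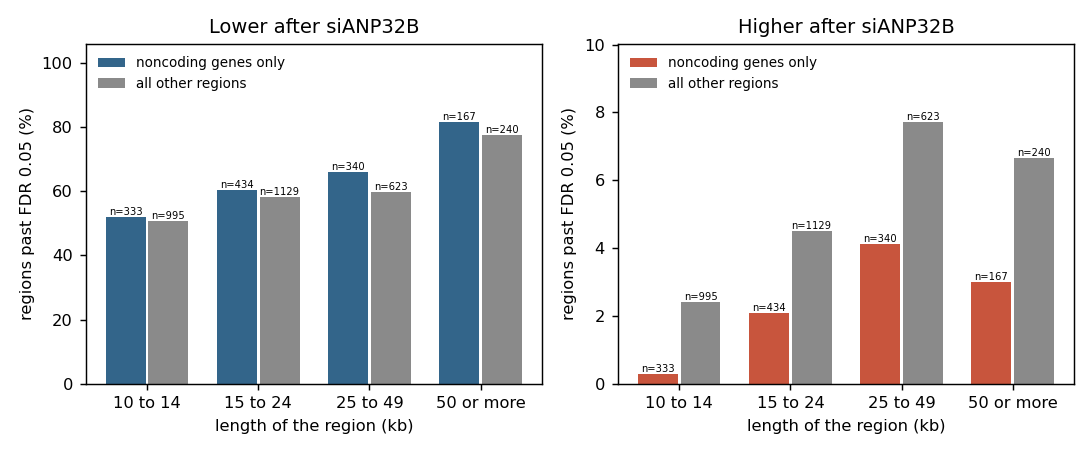
Share of regions called lower (left) and higher (right) after siANP32B at an FDR of 0.05, by region length in kb, for noncoding-only regions and for the other regions on chromosomes 1 to 22, with n above each bar. The lower share of noncoding-only regions is 52.0% in the shortest class and 81.4% in the longest.

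The smallest p-value among the 1274 regions was at LOC105378316, an uncharacterised lncRNA gene whose promoter is shown above, on chr10:58425001-58491000 (hg38). Its log2 fold change was -1.67 in the authors' deposited table (FDR 1.04e-20), which leaves 31.4% of the siControl level in the representative window, and all of its 54 windows were down. The region was nonetheless fully inside a called domain in both siANP32B libraries and in both siControl libraries, with domains of 112 and 108 kb after siANP32B and of 111 and 68 kb in siControl. The change at this locus was therefore one of signal within domains that stayed on the lists.

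Loci of the same pattern followed. LOC105374914 on chr6:8930001-8973000, also uncharacterised, had a log2 fold change of -1.40 in the authors' deposited table (FDR 1.58e-15), with 93.0% and 100% of its length in domains after siANP32B and 100% in both siControl libraries. LINC00824, a lncRNA gene at chr8:128432001-128482000 and 689 kb from MYC, the nearest coding gene, had -1.52 in the authors' deposited table (FDR 7.66e-15). It was 88.0% covered in each siANP32B library, and 88.0% and 86.0% covered in the siControl libraries. In neither case did domain coverage separate the groups as the fold changes did.

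The remaining loci among the 12 lower regions with the smallest p-values had log2 fold changes between -1.20 and -1.46 in the authors' deposited table. They were CPHL1P, a pseudogene related to ceruloplasmin and hephaestin, MIR30C2, LINC01729, LINC02125, LINC01808, LOC105377928, LOC107986166, LOC107985251 and LOC105373954. CPHL1P (chr3:149269001-149288000) fell most of these, by 1.46 on the log2 scale in the authors' deposited table (FDR 4.10e-13), and was fully covered in all 4 libraries. At LOC107986166 (chr3:188004001-188118000) 55 of the 100 windows were counted as down and none as up. A window counted as neither may still have fallen, so these counts do not show how far along the region the fall reached. LINC01729 (chr20:5507001-5526000) had a log2 fold change of -1.25 in the authors' deposited table (FDR 8.31e-12), and was 100% and 0% covered in the siANP32B libraries and 100% covered in both siControl libraries. The siANP32B libraries differ here as much as coverage can, so the domain lists do not separate the groups at this locus. LINC02125 (chr16:76644001-76656000), with -1.28 in the authors' deposited table (FDR 1.40e-11), was 50.0% and 91.7% covered after siANP32B and fully covered in both siControl libraries.

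The 29 higher regions were led by uncharacterised lncRNA genes. LOC105375052 on chr6:40699001-40738000, whose promoter is shown above, had a log2 fold change of 1.46 in the authors' deposited table (FDR 2.88e-13), or 276% of the siControl level in the representative window, and all of its 30 windows were up. It was fully covered in all 4 libraries, but the domains around it were 470 and 371 kb long after siANP32B and 50 and 42 kb long in siControl. The domains here thus reached far beyond the tested region in both siANP32B libraries.

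LINC02122 on chr5:74091001-74117000 had a log2 fold change of 1.43 in the authors' deposited table (FDR 1.31e-09) with all 17 windows up. It was fully covered in both siANP32B libraries and 96.2% and 80.8% covered in the siControl libraries, inside domains of 171 and 181 kb after siANP32B and 29 and 23 kb in siControl. LOC105373587 on chr2:121005001-121054000, 12.3 kb from GLI2, a transcription factor gene of the Hedgehog pathway, had 1.00 in the authors' deposited table (FDR 9.37e-07). Its domains were 1059 and 1021 kb long after siANP32B and 300 and 317 kb long in siControl. In each of these loci both siANP32B libraries had longer domains than either siControl library.

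LOC105373081 (chr22:48359001-48381000) had a log2 fold change of 1.24 in the authors' deposited table (FDR 1.10e-07), with full coverage in both siANP32B libraries and 59.1% and 100% in the siControl libraries. LOC105374949 (chr6:15948001-15988000) had 1.01 in the authors' deposited table (FDR 1.22e-07), and LOC105369778, a pseudogene on chr12:54861001-54930000, had 0.92 (FDR 3.30e-06). The other regions among the 12 higher ones with the smallest p-values lay over LOC124900925, LOC105373456, AOX3P-AOX2P, LINC02774, PDE4DIPP2 and LINC02656, with log2 fold changes of 0.69 to 0.84 in the authors' deposited table. LOC105373456 (chr2:18746001-18833000) moved in parts, with 15 of its 58 windows up and 6 down.

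The domains around the higher regions were also measured, again with a sign of change that the domain lists had set. Both siANP32B libraries had a longer domain than both siControl libraries at 14 of the 29 higher noncoding-only regions (48.3%) and a shorter one at none. Over all 4474 regions the domain was longer in this sense at 32.4% and shorter at 9.41%. Over the regions on chromosomes 1 to 22 outside the noncoding-only class, the shares were 34.7% and 8.57%. Among the 139 higher regions outside the noncoding-only class it was longer at 100 (71.9%). The median domain around the 29 higher regions measured 106 and 94 kb after siANP32B and 58 and 67 kb in siControl. Around the 795 lower regions it measured 133 and 140 kb after siANP32B and 143 and 110 kb in siControl, and the groups overlapped.

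Of the microRNA loci, MIR30C2 had the largest change. It encodes miR-30c, a member of a family whose shared seed GUAAACA is shown above, and its region is chr6:71366001-71391000, 56.9 kb from OGFRL1. Its region had a log2 fold change of -1.42 in the authors' deposited table (FDR 3.53e-11), or 37.3% of the siControl level in the representative window, with all 12 windows down. The region was 80% and 76.0% covered after siANP32B and fully covered in both siControl libraries, and its domain was 28 and 34 kb long after siANP32B and 53 and 47 kb long in siControl. It was the only microRNA region in which coverage separated the groups.

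MIR3148 and MIR1208, both on chromosome 8, followed with log2 fold changes of -1.16 and -1.11 in the authors' deposited table (FDR 9.20e-07 and 6.70e-09). Their regions stayed fully covered in all 4 libraries. MIR1208 lies in chr8:128113001-128175000, 370 kb from MYC, in a region shared with the lncRNA gene LOC124902020, so the change cannot be assigned to one of the genes. MIR5708, MIR4703, MIR5692B, MIR12133, MIR6076, MIR3141, MIR4425 and MIR548H5 were also lower, with log2 fold changes between -0.94 and -0.58 in the authors' deposited table. The microRNA gene itself fills less than 1% of each of these regions, so the values describe the chromatin around it and not the gene body.

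**Figure D4:**
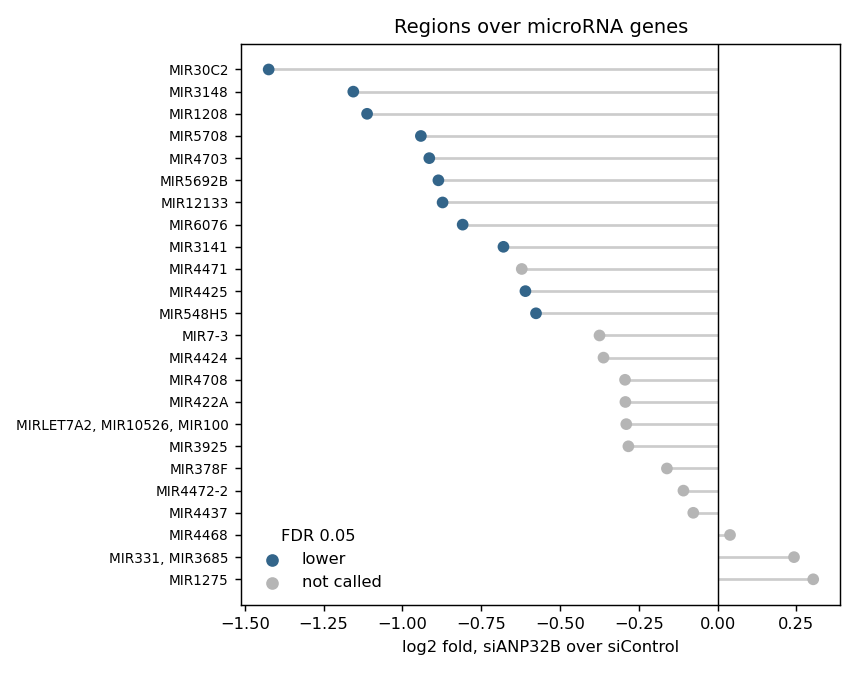
Log2 fold change (siANP32B over siControl) in the authors' deposited table for each of the 24 regions over a microRNA gene, named by its microRNA genes and coloured by call at an FDR of 0.05. MIR30C2 is lowest at -1.42, and the 3 regions above 0 are not called.

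Of the 24 microRNA regions, 13 did not pass. MIR100 and MIRLET7A2, processed from the lncRNA MIR100HG on chromosome 11, share a region with a log2 fold change of -0.29 in the authors' deposited table (FDR 0.330), and that region was fully covered in all 4 libraries. MIR7-3, which encodes miR-7, a microRNA abundant in neural and endocrine cells, had -0.37 (FDR 0.255), MIR331 had 0.24 (FDR 0.473) and MIR1275 had 0.30 (FDR 0.184) in the authors' deposited table. MIR422A and MIR378F, whose products share the seed CUGGACU, had log2 fold changes of -0.29 and -0.16 in the authors' deposited table. A p that misses the threshold does not show that these loci kept their level.

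Of the 12 regions over tRNA genes, which RNA polymerase III transcribes, 11 were lower. They included TRG-GCC1-5 on chromosome 21, a glycine tRNA gene, with a log2 fold change of -0.85 in the authors' deposited table (FDR 3.08e-05), and a chromosome 5 region with TRV-CAC1-2 and TRL-AAG1-1, valine and leucine tRNA genes, with -0.71 (FDR 0.000442). Only these passed an FDR of 0.01, as the other lower ones had FDRs between 0.0134 and 0.0299. TRG-GCC1-5 spans chr21:17454789-17454859 in a region of chr21:17399001-17504000. The tRNA, snoRNA and small nuclear RNA genes had a median length of 0.083 kb. The values of these regions thus describe the surrounding chromatin and not the genes themselves. On chromosome 6 a group of regions between chr6:26299001 and chr6:28722000, each with a pair of tRNA genes, had log2 fold changes from -0.48 to -0.43 in the authors' deposited table. The region of TRE-TTC4-2, a glutamate tRNA gene on chromosome 1, was the only one of the 12 that did not pass, with -0.31 in the authors' deposited table (FDR 0.218). That region and the one of TRG-CCC5-1 lay outside the called domains in all 4 libraries.

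Among snoRNA genes, the largest cluster was in the imprinted region of chromosome 14 that also encodes MEG8. A 10 kb region on chr14:100965001-100975000 lies inside MEG8, a maternally expressed lncRNA gene, and holds 9 genes of the SNORD114 family of snoRNAs. It held the most noncoding genes of any region, 10, and had a log2 fold change of -0.76 in the authors' deposited table (FDR 0.00168), from a single window. Its coverage was full in all 4 libraries, while its domain was 163 and 393 kb long after siANP32B and 61 and 76 kb long in siControl. Signal in the region was lower and the called domain around it was longer in both siANP32B libraries. The other regions with the most noncoding genes were those of LOC105375070, with 8, and of LOC101927787, LOC112268335 and LOC107987133, with 7 each. All were lower, with log2 fold changes of -0.89, -0.71, -0.77 and -0.96 in the authors' deposited table. Of the 114 noncoding-only regions with 3 or more noncoding genes, 57.0% were lower, close to the 58.4% of all regions. The share over all noncoding-only regions was 62.4%, and the 114 had a median width of 40.5 kb.

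Of 100 listed lncRNAs with published roles, 91 were in the annotation, 13 overlapped a tested region and 7 lay in noncoding-only regions, 10 regions in all. Of these 10, 5 were lower, 0 were higher and 5 did not pass, where 58.4% of all regions were lower and 3.82% higher, with a median log2 fold change of -0.37 in the authors' deposited table. CASC8, a lncRNA gene of the cancer risk interval upstream of MYC, spans 3 of the regions. Its outer regions were lower, with log2 fold changes of -0.82 and -0.76 in the authors' deposited table, and a 13 kb region between them had -0.02 (FDR 0.945). The region at -0.82 lies wholly inside another lncRNA gene, CASC21, so its change cannot be assigned to one of the genes. In it, 17 of 59 windows were counted as down. LINC00511, described as an oncogenic lncRNA, fell by 0.44 on the log2 scale in the authors' deposited table (FDR 0.0179). LINC00299 had 1 region lower, at -0.57, and 1 that did not pass, at -0.27, in the authors' deposited table. PANDAR, a lncRNA gene at the CDKN1A promoter that is induced by DNA damage, lies in a 60 kb region with -0.28 (FDR 0.215), 1.46 kb from the cell cycle inhibitor gene CDKN1A. PRNCR1, near the same risk interval as CASC8, had the only positive value of the list, 0.36 (FDR 0.103), in the authors' deposited table.

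The 5 longest regions were all lower, where 81.4% of noncoding-only regions and 77.5% of the other regions of 50 kb or more were. These 5 were the 271 kb region of LOC124904539 on chromosome 1, with a log2 fold change of -1.03 in the authors' deposited table, the 252 kb region of LINC01488 on chromosome 11 with -0.89, a 233 kb region on chromosome 6 with -0.89, the 199 kb region of PCAT29 and DRAIC on chromosome 15 with -0.84, and the 175 kb region of LOC105370003 on chromosome 12 with -1.002. Several border well known coding genes. The LINC01488 region (chr11:69385001-69637000) lies 4.16 kb from CCND1, which encodes cyclin D1, and had 156 of 163 windows down. The chromosome 6 region (chr6:43788001-44021000) lies 1.51 kb from VEGFA, which encodes a growth factor for blood vessels, and holds 8 noncoding genes led by LOC105375070. PCAT29 and DRAIC are lncRNA genes described as suppressors of prostate cancer cell growth, and 126 of the 180 windows of their region were down. Except for 1 siControl library at LOC105370003, with 96.6%, these regions were fully covered in all 4 libraries.

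Long lncRNA genes could also span several regions that moved the same way. LINC01331 on chromosome 5 held 4 regions and LOC105369844 on chromosome 12 held 4, all of them lower, with log2 fold changes from -0.78 to -0.71 and from -0.86 to -0.67 in the authors' deposited table. LINC00970 on chromosome 1 held 4 regions and LOC105370777 on chromosome 15 held 4, of which 3 each were lower. For scale, 62.4% of noncoding-only regions and 58.4% of all regions were lower, and these genes were not tested against those shares. LOC105370777 held both a region at -0.97 and one at -0.06 in the authors' deposited table. In that gene, which is 556 kb long, the values differed between stretches of 1 gene.

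The pseudogene regions with the smallest p-values, after CPHL1P, lay over fragments of unrelated families. RNU6-1006P, a copy of the U6 small nuclear RNA, lies in chr2:170110001-170139000, which fell by 1.02 on the log2 scale in the authors' deposited table (FDR 1.14e-07). UQCRHP2, a copy of a gene of respiratory complex III, lies in a chromosome 2 region that fell by 0.99, RNA5SP362, a 5S ribosomal RNA copy on chromosome 12, in one that fell by 0.94, and OR2Q1P, an olfactory receptor pseudogene on chromosome 7, in one that fell by 1.08, all in the authors' deposited table. RNU6-1006P fills 0.355% of its region and RNA5SP362 fills 0.472%, so the values belong to the surrounding sequence.

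Domain coverage did not differ between the groups beyond the spread between libraries. The noncoding-only regions were on average 94.8% and 95.8% covered by called domains in the siANP32B libraries and 96.7% and 95.0% covered in the siControl libraries. The means were 95.3% ± 0.732 in siANP32B and 95.8% ± 1.17 in siControl (SD, n = 2 each), a difference of -0.530 percentage points (exact permutation test, two-sided, p = 0.667), and the groups overlapped. With 2 libraries per group the smallest p that this test can give is 0.3333. At least 50% of the region lay in a domain at 1222 and 1234 of the 1274 regions after siANP32B and at 1246 and 1233 in siControl. Full coverage in all 4 libraries was found at 920 regions (72.2%), against 63.1% of all regions and 66.1% of all those on chromosomes 1 to 22.

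Set against the other regions on chromosomes 1 to 22, the noncoding-only regions were covered more in every library, by 0.788 and 0.948 percentage points in siANP32B and by 1.02 and 2.21 in siControl. This excess changed by -0.747 points between the groups (exact permutation test, two-sided, p = 0.3333, n = 2 each). No siANP32B value overlapped a siControl value here, and the test cannot give a smaller p. The direction turned with other domain filters, to 1.09 above a common score and 0.0195 above each list's lower quartile of score, and the value was -0.151 without siControl replicate 2. Over the annotated spans of the noncoding genes themselves, coverage was 89.6% ± 0.772 in siANP32B and 88.8% ± 1.72 in siControl (SD, n = 2 each; exact permutation test, p = 0.667).

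Coverage split by call is a description only, because the sign of the folds was itself set from domain coverage over the whole table, which includes these regions. The 795 lower regions were 94.8% ± 1.21 covered in siANP32B and 97.1% ± 0.748 in siControl, and 595 of them were fully covered in all 4 libraries. The 29 higher regions were 97.3% ± 0.265 covered in siANP32B and 90.2% ± 0.820 in siControl (SD, n = 2 each in all cases). Coverage in both siANP32B libraries was above both siControl libraries at 31 noncoding-only regions (2.43%) and below at 32 (2.51%), where 3.62% and 3.02% of all regions were. Among all regions on chromosomes 1 to 22, to which the noncoding-only regions are limited, the shares were 3.71% and 2.51%. Of the 32, 28 were lower by fold change, a count that the choice of sign favours. Of the 31, 5 were higher by fold change and 9 were lower. At these 9 regions, among them those of OR7E158P, NFKB1-AS1, LINC00504 and CCDC26, the domains covered more after siANP32B while the signal was lower.

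**Figure D5:**
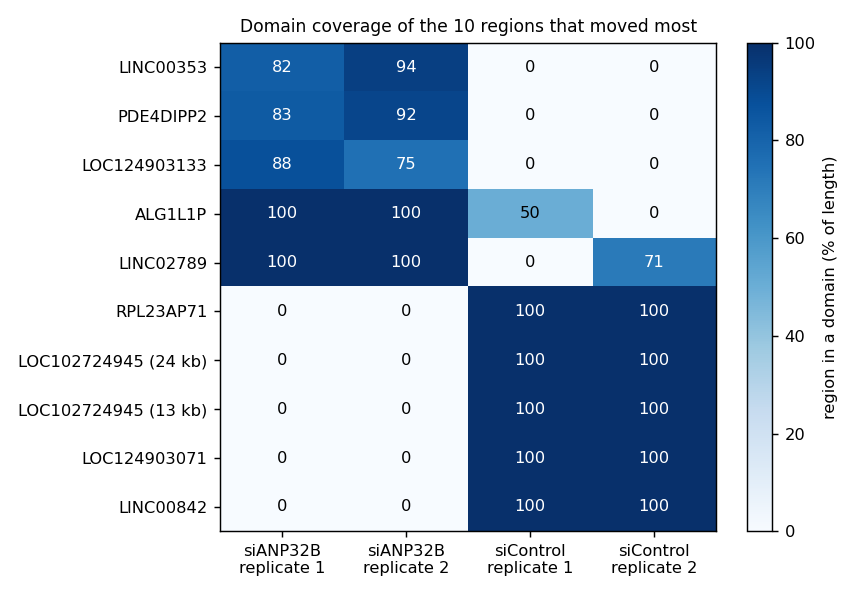
Percent of each region inside a called domain in every library, for 10 noncoding-only regions. They are the 5 with the largest rise in mean coverage between the groups and 5 of those tied at the largest fall. The siANP32B libraries are the left columns, and the 5 lowest rows hold 0 in both siANP32B libraries and 100 in both siControl libraries.

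The largest coverage changes took whole loci on or off the lists. At PDE4DIPP2 (chr1:120560001-120572000), a pseudogene of the centrosomal gene PDE4DIP, coverage was 83.3% and 91.7% after siANP32B and 0% in both siControl libraries, and its log2 fold change was 0.71 in the authors' deposited table (FDR 0.000821). LINC02789, LOC124903133 and LINC00353 also gained coverage, with log2 fold changes of 0.45, 0.48 and 0.20 in the authors' deposited table, none past the FDR. ALG1L1P, a pseudogene on chromosome 3, was fully covered in both siANP32B libraries and 50.0% and 0% covered in the siControl libraries, with -0.17 in the authors' deposited table (FDR 0.454). Only the first of these 5 gains stood beside a called rise in signal.

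The 5 losses named here, from the lists of both siANP32B libraries, were all called lower. They were tied with others at a fall of 100 percentage points. The chromosome 20 region shared by LOC100128988 and LOC105372621 fell by as much and was not called (FDR 0.0970). Among the 5 named, LINC00842 on chromosome 10 had a log2 fold change of -0.79 and LOC124903071 on chromosome 12 had -0.97 in the authors' deposited table. The other 3 lie near each other on chromosome 14, at chr14:34014001-34027000 and chr14:34033001-34057000 in the lncRNA gene LOC102724945, of which the second also lies over EGLN3-AS1, an antisense gene of the oxygen sensor EGLN3, and at RPL23AP71, a ribosomal protein pseudogene. Their log2 fold changes were -0.48, -0.94 and -0.44 in the authors' deposited table. The siControl domains over the LOC102724945 regions were 1061 and 852 kb long, with score ranks at the 0.0116 and 6.79 percentile of their lists, so these were among the weakest domains by the authors' own score. With domains limited to those above the lower quartile of score in their list, above a common score, or to equal numbers of best-scored domains, the loss of 100 percentage points at each LOC102724945 region became 0. At RPL23AP71 it became -50, 0 and -50 points under these limits, and at LOC124903071 it became -50 above the common score; LINC00842 kept -100 under each. The losses at both LOC102724945 regions rest on 1 domain in each siControl library, and RPL23AP71 lay in the same 852 kb domain in siControl replicate 2 and in one of 80 kb in siControl replicate 1.

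Counted by gene, 7 of the 1704 noncoding genes had at least 50% of their span covered in both siControl libraries and none in either siANP32B library. They were GRPEL2P3, LOC124903071, LOC102724945, EGLN3-AS1, RPL23AP71, LOC100128988 and LOC105372621. The region of GRPEL2P3 (FDR 0.257) and the region shared by LOC100128988 and LOC105372621 (FDR 0.0970) were not called, and those of the rest were lower. LOC102724945, EGLN3-AS1 and RPL23AP71 are the chromosome 14 loci described above, so these are not separate changes. The opposite was found for 6 genes, LOC124904641, LOC100422402, LOC100132651, OR7E158P, LINC00353 and LINC02336. Of their regions, that of LOC124904641 was called higher, that of OR7E158P was called lower, and the others were not called. The share of such genes over all annotated genes was not computed. At the other end, 11 noncoding-only regions lay in no domain of any library. Of these, 5 (45.5%) were called lower in the authors' deposited table, where 58.4% of all regions were.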

How the data were processed

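Per the submitters' processing notes, the authors used hg38 and named SICER, edgeR, Bowtie2, deepTools, SAMtools and Trim Galore, without versions. Each anti-macroH2A1 library has 1 deposited domain list, called by the authors per library, with a score per domain used here only for ranking and filtering. The authors' deposited table lists for each region, per the file headers, its p-value, its FDR, and how many windows were tested and counted as up or down. A window can be counted in neither direction. The authors' deposited fold of a representative window was read as log2, as edgeR writes it. The deposited FDR matches a Benjamini-Hochberg correction across the 4474 regions to within 1.11e-15. The order of the groups is not stated: over the whole table, regions with a positive fold were 95.1% covered by domains in siANP32B and 83.3% in siControl, which set the sign. The table has 0 columns with values per library, so no count model was fitted. The 4 IgG libraries were not analysed here.

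Gene spans and sequences came from RefSeq (GRCh38.p14, the assembly of hg38), with 37630 noncoding genes on chromosomes 1 to 22. A region belonged here if it shared at least 1 base with a noncoding gene and none with a coding gene. Groups were compared by exact permutation of libraries. The members and gene lists were chosen with earlier results of these data known. Regions named are the 12 lower and 12 higher ones with the smallest p-values, those over up to 20 microRNA genes by smallest p-value, the 5 longest, the 5 with most genes, the 5 largest rises and falls in coverage, the 5 leading pseudogenes and listed lncRNAs; tRNA and snoRNA regions, genes with several regions, genes that entered or left the lists, and the 9 regions with opposed changes were named after their values were seen. The largest falls in coverage were tied, so the 5 named are not the only regions with that fall. Class and coverage code was tested on simulated data, where 600 of 600 regions were classed correctly. Python 3.11.15, pandas 2.3.3 and scipy 1.17.1 were used.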

Additional observations from a re-analysis of the deposited data

How the results depend on the processing

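Of the 275 alternatives, 241 were labelled the same, most of them for single named regions. Among the 93 alternatives of the main results 75 were the same, 11 moved and 7 reversed. Counts and median folds had to stay within a set tolerance. For mean coverage differences the label asks only for the same sign, so it includes large shifts given below. The values with replicate number as a block counted as the same without a check. Without genes whose symbols start with LOC, 711 regions remained, 447 of them lower (62.9%) and 12 higher (1.69%). At an FDR of 0.01, 19 were higher and 15 regions over small RNA genes were lower. Of regions of at least 20 kb, 445 of 651 were lower (68.4%). Relative to the median of all regions, the median log2 fold change was -0.0238. With each region given only to its kind of longest overlap, 5 microRNA, 151 pseudogene, 10 small RNA and 1 other region were lower.

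Coverage differences turned with single libraries. Leaving out each replicate gave -1.36 to 0.300 points for region coverage (positive without siControl replicate 1), -0.418 to 2.01 for gene spans (negative without siControl replicate 2), -18 to -5 for regions at least 50% in a domain and -1.34 to -0.151 for the excess over other regions. With equal numbers of best-scored domains (7404 per list), region coverage differed by 0.956 points and regions at least 50% in a domain by 7.5. Above a common score, gene spans differed by -12.6 points, region coverage by -15.9, regions at least 50% in a domain by -208.5 and the excess by 1.09; above each list's lower quartile of score, regions at least 50% in a domain differed by -22 and the excess by 0.0195. The cause was not tested. Same-numbered libraries did not deviate together (correlation 0.00635 over these regions). With replicate number as a block, the pairs differed by -1.88 and 0.818 points in region coverage, -0.964 and 2.56 in gene spans, -0.231 and -1.26 in the excess, and -24 and 1 in regions at least 50% in a domain, with means of -0.530, 0.797, -0.747 and -11.5. Leaving out antigen receptor genes, chosen after seeing the data, removed no region and so tested nothing. Calls of single regions could not be recomputed without a library, and the number of domains found depends on depth, which is unknown.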
